A study of Mus musculus with 15 samples.

Results

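Acute phase proteins are plasma proteins whose secretion by the liver changes in inflammation, and 10 genes of the rising class were followed here through 15 liver tumors of mice. They are the serum amyloid A genes Saa1, Saa2 and Saa3, the orosomucoid (alpha-1-acid glycoprotein) genes Orm1, Orm2 and Orm3, haptoglobin (Hp), hemopexin (Hpx), serum amyloid P (Apcs) and the lipopolysaccharide binding protein gene Lbp. Members were all non-control probes of the array that carry 1 of these gene names. This gave 10 probes, 1 for each gene, out of 55681 probes, of which 32469 carry a gene symbol and stand for 24336 genes. Each of them was well above background on all 15 arrays, and each was tested in all 3 comparisons.

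The arrays measured total RNA of whole tumors in 3 groups of 5. The p53f/f HCC group holds hepatocellular carcinomas of Trp53flox/flox control mice, in which the gene is intact. The p53LKO HCC and p53LKO ICC groups hold hepatocellular carcinomas and intrahepatic cholangiocarcinomas, a bile duct type of cancer, of mice with a liver-specific deletion of Trp53. All mice, controls included, were males, were kept on a C57/BL6J background and were given carbon tetrachloride intraperitoneally in olive oil at 0.5 µl per g of body weight for 16 weeks from 6 weeks of age, which injures the liver chronically. The labels give 1 injection every 3 days, and the methods describe a slightly different interval. The age of each mouse at tumor collection and the promoter behind the deletion were not given in the sources used here. The paper reports that tumors formed later in control mice than in p53LKO mice. Age at collection may thus differ with genotype, and its part in the differences between genotypes was not tested. The 5 p53f/f tumors came from 4 mice, since mouse 3717 gave 2 of them. In 4 p53LKO mice an HCC and an ICC of the same animal were both measured.

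In hepatocytes, interleukin-6 acting through STAT3 and interleukin-1 or tumor necrosis factor acting through NF-kappaB and C/EBP factors switch on the acute phase genes. Albumin, transthyretin and other so-called negative acute phase proteins fall in the same reaction. Saa1 and Saa2 proteins travel on high density lipoprotein, Saa3 is also made by macrophages and fat cells, orosomucoids carry drugs and lipids, haptoglobin and hemopexin bind free hemoglobin and heme, Apcs is the pentraxin that plays the acute phase part in mice, and Lbp hands bacterial lipopolysaccharide to Cd14.

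Every member is read by a single probe of 60 bases, and the Saa and Orm genes are families of similar copies, so part of the probe sequences are shown. Those of Saa2, Hp, Hpx and Apcs are not shown, although Saa2 and Hpx were called in comparisons below. The sequences are given 5′ to 3′ as the array lists them. In the mm9 mouse genome the array places the Saa1 probe at chr7:53996070-53996129 and the Saa3 probe at chr7:53970389-53970448, both on the minus strand, and the Orm2 probe at chr4:63024979-63025038 on the plus strand. It gives no position for the Orm1, Orm3 and Lbp probes. How far a probe also takes up transcripts of a sister gene was not tested.
Saa1: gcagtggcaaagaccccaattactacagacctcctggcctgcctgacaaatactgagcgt
Saa3: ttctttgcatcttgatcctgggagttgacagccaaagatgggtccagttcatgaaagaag
Orm1: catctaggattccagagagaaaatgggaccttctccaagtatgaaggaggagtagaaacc
Orm2: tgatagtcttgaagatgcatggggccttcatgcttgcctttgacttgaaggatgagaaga
Orm3: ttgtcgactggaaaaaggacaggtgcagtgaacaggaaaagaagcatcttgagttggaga
Lbp: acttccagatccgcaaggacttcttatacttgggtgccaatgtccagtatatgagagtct

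The upstream regions of the 3 Saa genes are also shown, since Saa3 was called between the HCC groups and Saa1 and Saa2 between ICC and p53LKO HCC. The difference between the genes was not tested. The sequences are the 250 bases before the gene start from RefSeq (GRCm38.p6), with matches to the C/EBP motif TTNNGNAA on either strand in capitals. They lie at chr7:46742981-46743230 on the minus strand for Saa1, at chr7:46751583-46751832 on the plus strand for Saa2 and at chr7:46715677-46715926 on the minus strand for Saa3.
Saa1: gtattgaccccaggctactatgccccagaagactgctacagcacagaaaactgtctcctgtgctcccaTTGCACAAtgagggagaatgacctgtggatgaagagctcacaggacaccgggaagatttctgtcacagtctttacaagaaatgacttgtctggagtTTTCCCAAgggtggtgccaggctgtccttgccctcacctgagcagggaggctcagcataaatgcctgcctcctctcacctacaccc
Saa2: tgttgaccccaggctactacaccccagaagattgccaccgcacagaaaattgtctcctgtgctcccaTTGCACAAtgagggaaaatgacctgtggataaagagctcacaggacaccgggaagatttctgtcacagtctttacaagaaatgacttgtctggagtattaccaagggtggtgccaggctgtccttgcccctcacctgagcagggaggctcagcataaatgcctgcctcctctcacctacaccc
Saa3: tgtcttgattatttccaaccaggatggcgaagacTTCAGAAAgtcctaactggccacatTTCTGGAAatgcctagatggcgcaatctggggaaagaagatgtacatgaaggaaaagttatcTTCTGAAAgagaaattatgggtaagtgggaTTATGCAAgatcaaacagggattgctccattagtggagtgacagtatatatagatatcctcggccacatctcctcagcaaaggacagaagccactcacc
The Saa1 and Saa2 regions were identical at 197 of 249 aligned bases (79.1%, without gaps), and Saa1 and Saa3 at 74 of 243 (30.5%). The C/EBP motif was found at 2 places before Saa1, at 1 before Saa2 and at 4 before Saa3. The promoter table held 7 members, without Orm1, Hp and Lbp. Of these 7, 6 held the motif, against 36.8% of all 32851 promoters of that length. The STAT motif TTCNNNGAA was found before 1 of the 7, Apcs, against 7.02% of all promoters. Both strands were read for all motifs. Matches to the consensus of NF-kappaB, held by 7.25% of all promoters, were found before none of the 7 in this window.

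Levels are log2 intensities relative to the 75th percentile of the array, so a level of 0 is that percentile and a difference of 1 is 2-fold. Levels of different genes come from different probes and are not compared. The share of probes well above background was 55.1 to 70.1% on p53f/f HCC arrays, 37.0 to 62.1% on p53LKO HCC arrays and 42.5 to 47.0% on ICC arrays. The p53f/f HCC arrays all lay in the first row of the 2 slides and the ICC arrays all in the second row. Between these groups row and group thus cannot be told apart. The p53LKO HCC arrays lay in both rows. Every array of the first row, p53LKO HCC included, was at 55.1 to 70.1%, and every array of the second at 37.0 to 47.0%. The share thus went with the row within p53LKO HCC as well, and the cause was not tested. The 1 probe named Trp53 was at -1.01 ± 0.28 in p53f/f HCC, -3.09 ± 0.46 in p53LKO HCC and -3.07 ± 0.70 in ICC (mean ± SD, n = 5 each). The array places this probe on chromosome 17 of mm9, and that position was not checked against the place of the Trp53 gene. Whether the probe reads this gene, and lies in its deleted part, is not known, so its values do not by themselves show the deletion. The levels of 10 hepatocyte markers, summed, were at 10.91 to 11.79 in p53f/f HCC, 10.50 to 10.95 in p53LKO HCC and 7.38 to 10.11 in ICC. The summed cholangiocyte markers were at 3.59 to 5.33, 4.53 to 5.35 and 6.18 to 7.23. Of 9 cholangiocyte markers tested between ICC and p53LKO HCC 4 rose (Epcam, Krt7, Krt19 and Spp1) and 2 fell, Cldn7 by 2.52 and Cdh1 by 1.10, while Sox9 differed by 0.30 (adjusted p = 0.421). Epcam, an epithelial surface protein of bile ducts, was at least 94.0-fold higher in ICC than in p53LKO HCC (limma adjusted p = 1.76e-05), where it was well above background on 0 of 5 arrays. In whole tumors, fewer cells of a type and less RNA per cell cannot be told apart.

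The first comparison asked which acute phase genes differ between HCC with and without p53. In p53LKO HCC, Saa3 and Lbp rose, and the other 8 members did not pass the test (limma, adjusted p below 0.05 and a change of more than 2-fold). Over all 36086 probes tested, 19.6% were called, 3.64% as higher and 16% as lower. The members gave 2 called as higher and 0 as lower, with 0 as lower at an unadjusted p below 0.05 as well. The median difference was 0.71 over the members and 0.06 over all genes tested.

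Saa3 was at 0.09, -2.03, -0.77, -1.35 and -1.23 in the 5 p53f/f HCC and at 0.27, 0.89, 3.36, 0.66 and 2.06 in the 5 p53LKO HCC. Every p53LKO tumor lay above every p53f/f tumor, with the HCC of mouse 3731 the highest. The mean difference was 2.50 on the log2 scale (SE 0.58), a 5.67-fold rise with a limma adjusted p = 0.00771. Lbp, the lipopolysaccharide carrier, was at 2.71, 2.69, 2.03, 3.85 and 3.43 in p53f/f HCC and at 4.17, 3.86, 4.34, 4.42 and 4.72 in p53LKO HCC. Its groups did not overlap either, although the highest p53f/f tumor and the lowest p53LKO tumor lay close together. Lbp rose by 1.36 (SE 0.32), or 2.57-fold, with adjusted p = 0.00837. Non-overlapping groups, in either direction, were found for 22.5% of all probes tested. Both genes were called in all 26 other settings run, with adjusted p between 0.00131 and 0.0262 for Saa3 and between 0.000634 and 0.0365 for Lbp. Among arrays of the first row alone, Saa3 was 3.08 higher and Lbp 1.55 higher in p53LKO HCC. On slide 1 the differences were 1.59 and 1.20, and on slide 2, with 1 control tumor, 3.25 and 1.07.

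**Figure D1:**
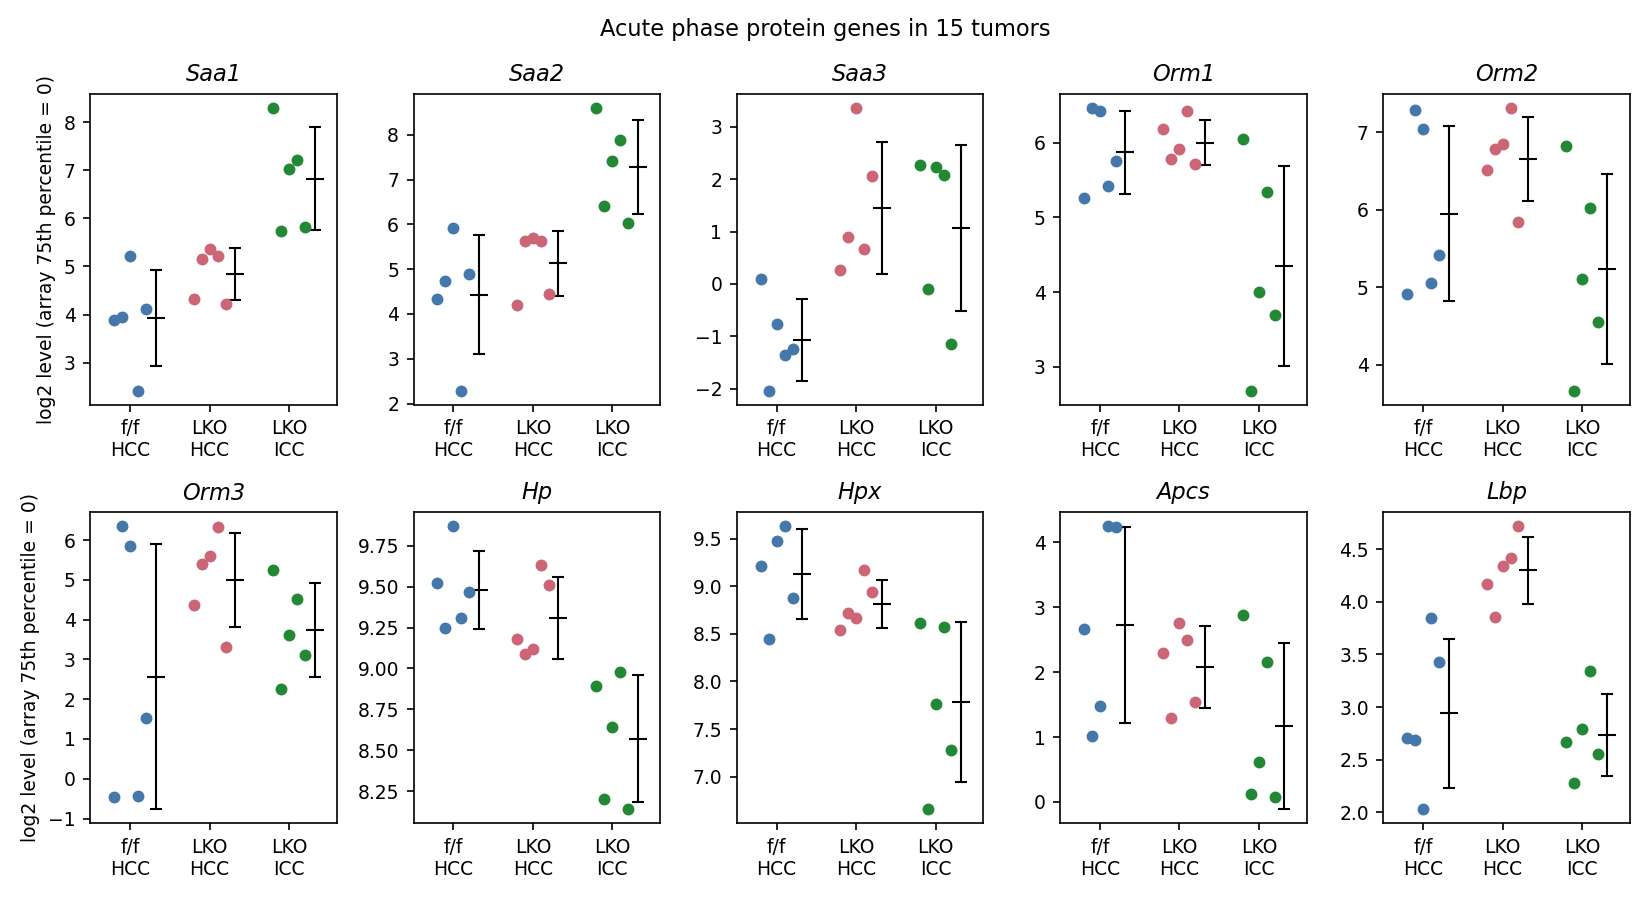
Log2 level of each acute phase gene (0 is the 75th percentile of the array) in the 15 tumors, 1 point for each array, with the mean and SD of the 5 arrays of a group drawn as a bar to the right of its points. The y axes differ between genes. Saa3 and Lbp separate p53LKO HCC from p53f/f HCC, and Saa1 and Saa2 separate ICC from both HCC groups.

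The other Saa genes and the orosomucoids did not pass the test between the HCC groups. Saa1 differed by 0.93 (95% interval -0.06 to 1.92) and Saa2 by 0.69 (-0.61 to 2.0). Without the HCC of mouse 3716, the highest control, Saa1 was 1.26 higher with adjusted p = 0.0343, where its adjusted p ranged from 0.00991 to 0.293 over all settings. Without the first tumor of mouse 3717, the lowest control, Saa1 differed by 0.56 and Saa2 by 0.16 (adjusted p = 0.268 and 0.809, the latter within a range of 0.061 to 0.809 for Saa2). Saa1 was also called with scaling on the array median (1.54) and on spike-in RNAs (1.67), and the latter also called Orm2 (1.46, adjusted p = 0.0327, range 0.0327 to 0.516). These scalings shift the median of all genes in this comparison by 0.61 and 0.74, and turn the split of all called probes from 1312 higher and 5774 lower to 7519 and 2813, and to 9834 and 2306.

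Orm3 split the control tumors. It was at -0.46, 6.35, 5.84, -0.43 and 1.53 in p53f/f HCC, against 4.36, 5.40, 5.61, 6.33 and 3.30 in p53LKO HCC. The tumors of mice 3715 and 3716 lay at the p53LKO level and the other 3 far below it, so that the group spanned 6.82 on the log2 scale, the widest of the 30 combinations of gene and group. The difference of 2.43 had an SE of 1.35 and adjusted p = 0.188. Orm2 showed the same tumors at the top, with 7.29 and 7.04 against 4.91, 5.06 and 5.42, and so did Orm1, with 6.47 and 6.42 against 5.26 to 5.75. Apcs ran the other way within this group, being lowest in mice 3715 and 3716, at 1.01 and 1.48, and at 4.25 and 4.23 in the 2 tumors of mouse 3717.

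Hp, Hpx and Apcs did not pass the test between the HCC groups. Hp differed by -0.18 (95% interval -0.57 to 0.22), Hpx by -0.32 (-0.85 to 0.20) and Apcs by -0.65 (-2.05 to 0.75). The sign of these differences is not settled, since Hp and Hpx were at 0.36 and 0.10 after quantile normalization and at 0.56 and 0.42 after spike-in scaling. Orm1 at 0.14 changed sign as well, to -0.05 after quantile normalization.

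**Figure D2:**
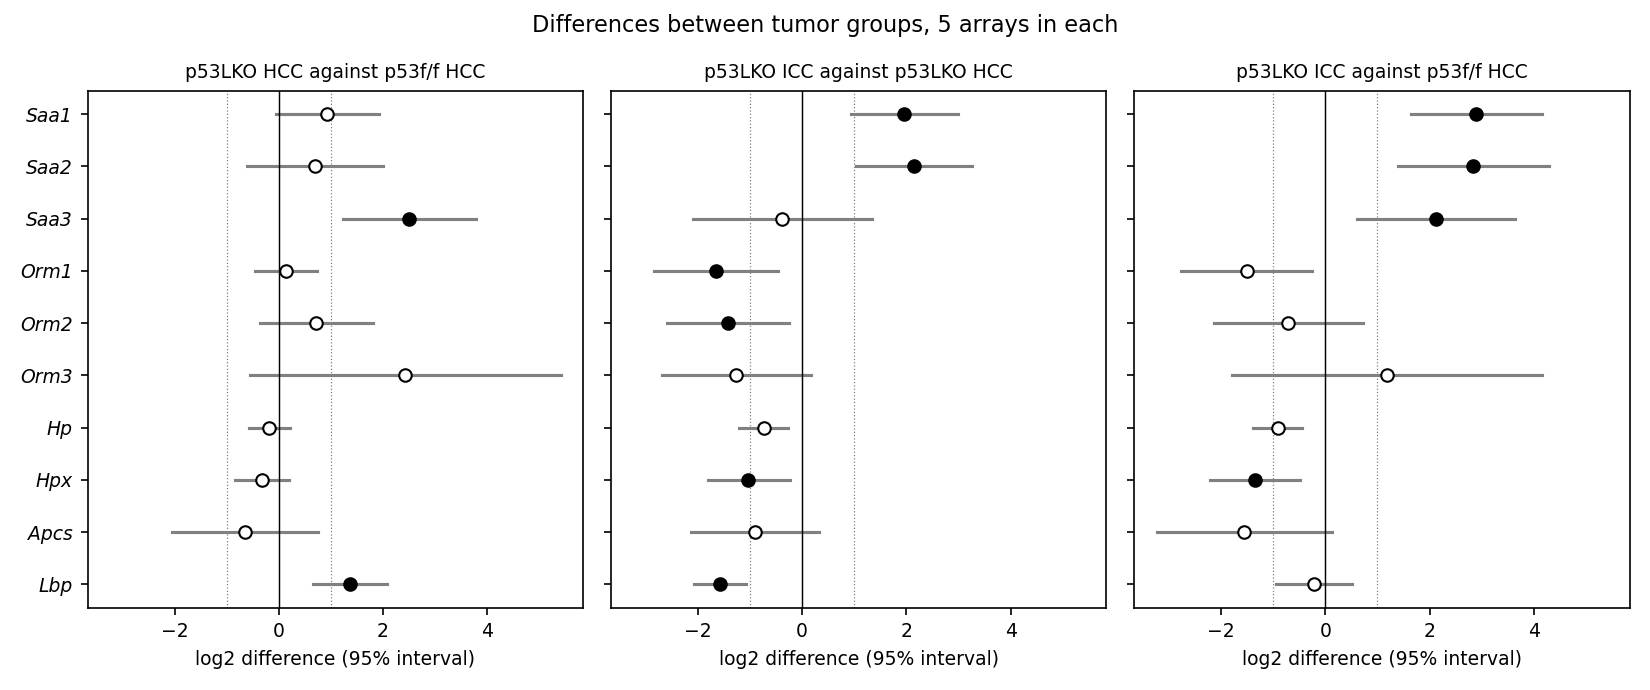
Log2 difference in level of each acute phase gene for the 3 comparisons, with the 95% interval of the limma fit on 5 arrays in each group. Filled points passed the test, open points did not, and dotted lines mark a 2-fold change. Saa3 and Lbp are filled in the first comparison, Saa1, Saa2, Orm1, Orm2, Hpx and Lbp in the second.

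The second comparison set ICC against HCC of p53LKO mice, 2 tumor types that arise in the same livers. Saa1 and Saa2 rose in ICC, and Orm1, Orm2, Hpx and Lbp fell. Over all 32666 probes tested 26.4% were called, 12.9% as higher and 13.4% as lower, and of the 10 members 2 were called as higher and 4 as lower. The median difference was -0.97 over the members and -0.17 over all genes. This comparison shares the p53LKO HCC arrays with the first one.

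Saa1 was at 4.33, 5.15, 5.36, 5.22 and 4.22 in p53LKO HCC and at 8.30, 5.73, 7.02, 7.21 and 5.82 in ICC. Saa2 was at 4.21, 5.64, 5.69, 5.64 and 4.45 in HCC and at 8.61, 6.42, 7.42, 7.89 and 6.04 in ICC. For both genes every ICC lay above every HCC, and the ICC of mouse 3731 was the highest of the 15 tumors. Groups without overlap, in either direction, were found for 28.6% of all probes tested. Saa1 rose by 1.96 (SE 0.47), or 3.90-fold, with adjusted p = 0.00709. Saa2 rose by 2.15 (SE 0.50), or 4.44-fold, with adjusted p = 0.00626. Both calls held when any single tumor was left out. With the mouse as a block, Saa1 was 1.71 higher (adjusted p = 0.049) and Saa2 1.83 higher (adjusted p = 0.0521). In the second row of the slides alone, with 2 HCC, the differences were 2.08 (adjusted p = 0.0669) and 2.35 (adjusted p = 0.054). Over all settings the adjusted p ran from 0.003 to 0.0669 for Saa1 and from 0.00246 to 0.054 for Saa2. On slide 1 the differences were 3.56 and 3.68, and on slide 2 they were 1.52 and 1.68.

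Saa3 did not follow its sister genes. It was at 2.26, -0.09, 2.23, 2.07 and -1.15 in ICC, so that 3 tumors lay at the upper end of the p53LKO HCC range and 2 below it. The difference of -0.38 (95% interval -2.10 to 1.34) had adjusted p = 0.715 and turned to 0.17 without the ICC of mouse 5283 and to 0.10 without the HCC of mouse 3731.

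Lbp fell in ICC. It was at 2.67, 2.28, 2.79, 3.34 and 2.55 there, below all 5 p53LKO HCC, and the difference of -1.58 (SE 0.23) had adjusted p = 0.000471. The call held in all 25 other settings, with adjusted p from 0.000154 to 0.0252, and in the second row alone Lbp was at -1.29. On slide 1 the difference was -1.35 and on slide 2 it was -1.75.

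The orosomucoids Orm1 and Orm2 and the heme binder Hpx fell in ICC, with some ICC inside the HCC range. Orm1 was at 6.18, 5.78, 5.91, 6.43 and 5.71 in p53LKO HCC and at 6.05, 2.68, 4.0, 5.34 and 3.69 in ICC. The ICC of mouse 3731 thus lay within the HCC range, and that of mouse 3733 lay furthest below it. Orm1 fell by 1.65 (SE 0.54, adjusted p = 0.0285), Orm2 by 1.42 (SE 0.53, adjusted p = 0.0471) and Hpx by 1.03 (SE 0.36, adjusted p = 0.0359).
Hp, with 8.89, 8.20, 8.64, 8.98 and 8.14 in ICC, lay below all 5 p53LKO HCC at 9.09 to 9.63. Its difference of -0.74 (SE 0.21) had adjusted p = 0.0168 but stayed under 2-fold. It was -0.37 after quantile normalization and with scaling on probes above background on all arrays, and -1.09 with median scaling, which called it (adjusted p from 0.00198 to 0.204 over all settings). Orm3 at -1.26 (adjusted p = 0.136) and Apcs at -0.91 (adjusted p = 0.203) did not pass the test.

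The calls of Orm1, Orm2 and Hpx depended on single tumors and on the fit. All 3 were lost without the ICC of mouse 3733 (-1.23, -1.03 and -0.75), 3976 (-1.56, -1.39 and -1.02) or 5283 (-1.48, -1.25 and -0.90), or without the HCC of mouse 3733 (-1.54, -1.26 and -0.94). Orm1 and Orm2 were lost without the HCC of mouse 3976 (-1.60 and -1.46), and Orm2 and Hpx without that of mouse 5283 (-1.40 and -1.05) or 3731 (-1.38 and -1.06). Without the HCC of mouse 3975, Hpx was lost (-1.0) and Orm3 was called at -1.68, and without the ICC of mouse 3731, Apcs was called at -1.34. With the mouse as a block, the differences of Orm1, Orm2 and Hpx were -1.97, -1.83 and -1.20 (adjusted p = 0.0554, 0.0592 and 0.0776). Over all settings the adjusted p ran from 0.00567 to 0.186 for Orm1, from 0.0112 to 0.21 for Orm2 and from 0.00644 to 0.277 for Hpx. On slide 1, which holds the ICC of mouse 3731 and 2 HCC, the differences were 0.07, 0.17 and -0.02, and on slide 2 they were -2.09, -1.83 and -1.36.

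The same contrast was read within the 4 mice that carried both tumor types. Saa1 was higher in the ICC of all 4 mice, by 2.70 in mouse 3976, 0.67 in mouse 5283, 2.94 in mouse 3731 and 0.52 in mouse 3733. Saa2 was higher in all 4 as well, by 0.41 to 3.20. Lbp was lower in the ICC of all 4, at -1.38, -1.31, -1.67 and -2.14 in the same order, a narrow range beside the other members. Orm1 was at -2.18, -2.09, 0.14 and -3.76, so mouse 3731 showed next to no difference and mouse 3733 a large one. Orm2 and Orm3 were below 0 in all 4 mice, at -3.65 to -0.03 and at -4.07 to -0.37. Hpx and Hp were lower in all 4 mice, by amounts between 0.05 and 2.51 for Hpx and between 0.23 and 1.43 for Hp. Saa3 was higher in the ICC of mouse 3976, at 1.97, and lower in the other 3 mice, at -2.04 to -0.74.

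**Figure D3:**
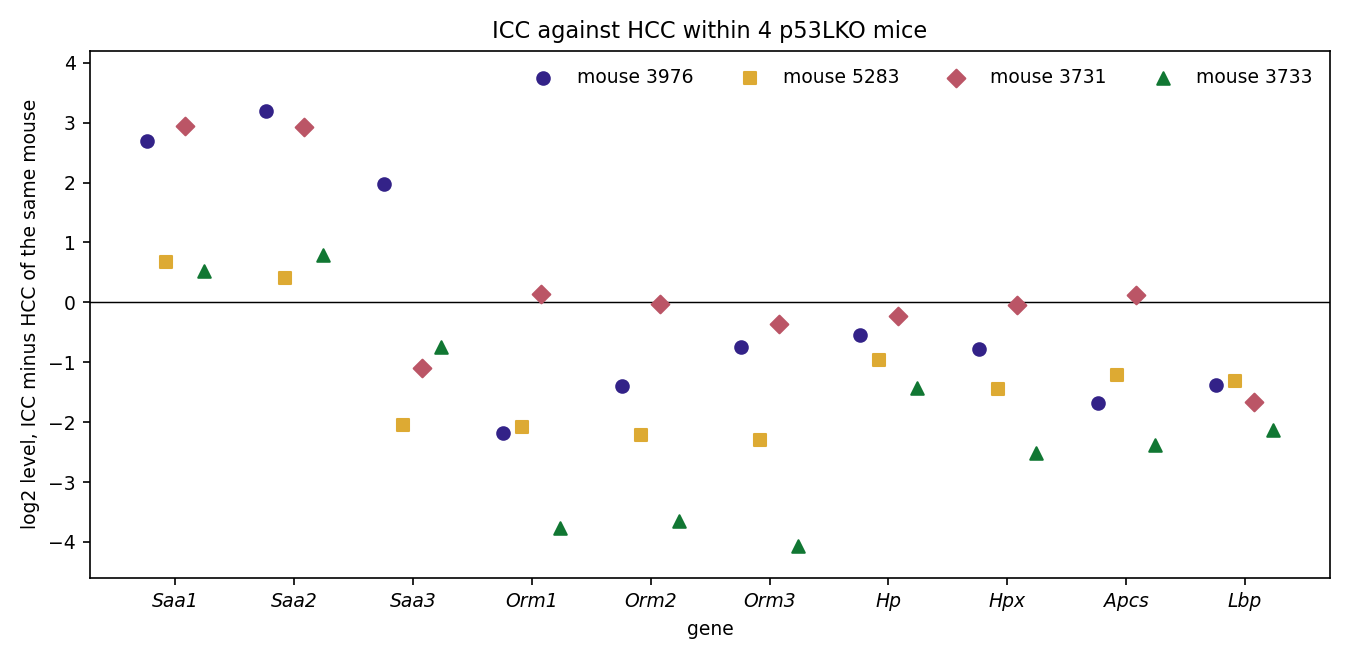
Log2 level in the ICC minus log2 level in the HCC of the same mouse for each acute phase gene in 4 p53LKO mice, 1 symbol for each mouse. Saa1 and Saa2 lie above 0 and Orm2, Orm3, Hp, Hpx and Lbp below 0 in all 4 mice, while mouse 3733 has the lowest value for every gene but Saa2 and Saa3.

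ICC was also set against p53f/f HCC, to order the 3 groups. Genotype and tumor type differ together here, and the arrays are those of the other comparisons. Saa1 was 2.90 higher (adjusted p = 0.00379), Saa2 2.84 higher (adjusted p = 0.00825) and Saa3 2.12 higher in ICC (adjusted p = 0.0349), and Hpx fell by 1.35 (adjusted p = 0.0219). Of all 35702 probes 19.4% were called, 7.43% as higher and 12% as lower, and 24.2% had groups without overlap, as Saa1, Saa2 and Hp did. Hp differed by -0.91 (adjusted p = 0.00891), under 2-fold, but by -0.16 with spike-in scaling and by -0.00 after quantile normalization, where its adjusted p was 0.993 (range 0.00314 to 0.993). Mean levels thus ran from 3.92 over 4.85 to 6.82 for Saa1 in p53f/f HCC, p53LKO HCC and ICC, where the first step did not pass the test. For Lbp they ran from 2.94 over 4.30 to 2.73, and the outer groups differed by -0.22 (95% interval -0.95 to 0.52).
The Saa3 call was lost without the ICC of mouse 3731 (1.83), 3976 (1.83) or 3977 (1.87), and without the HCC of mouse 3715 (1.88) or 3716 (2.20) or the first (2.05) or second (2.08) tumor of mouse 3717. With both tumors of mouse 3717 averaged it was 2.07 higher, and with the slide as a block 2.63 higher, neither of which was called. Its adjusted p ran from 0.00302 to 0.0836 over all settings. Hpx was lost without the first tumor of mouse 3717 (-1.22), and its difference was -0.56 after quantile normalization, -0.60 with spike-in scaling and -0.94 with the slide as a block (adjusted p from 0.00717 to 0.282 over all settings). Orm1 was called without the ICC of mouse 3731 (-1.94) or 3977 (-1.76), and Hp without the latter (-1.02).

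Markers of hepatocytes moved with part of these differences. Of 10 hepatocyte markers 5 fell in ICC against p53LKO HCC and 0 rose, with 7 lower and 0 higher at an unadjusted p below 0.05. In p53LKO HCC against p53f/f HCC 3 fell and 0 rose, with 4 lower and 0 higher at an unadjusted p below 0.05. The ICC of mouse 3733 had the lowest Saa1, Orm1, Orm2, Orm3, Hpx and Lbp of the 5 ICC. Its marker sum was the lowest as well, 7.38, against 9.80 in the ICC of mouse 3731. Across the 15 arrays, deviations of Hpx from its group means went with those of the summed hepatocyte markers at r = 0.88, and at r = 0.80 without the 2 arrays farthest out. For Hp the values were 0.69 and 0.60, for Orm1 0.69 and 0.31, for Orm2 0.43 and -0.02, and for Orm3 0.03 and -0.34. For Saa1 they were 0.43 and 0.24, for Saa2 0.31 and 0.13, for Saa3 0.54 and 0.52, for Apcs 0.57 and 0.60, and for Lbp 0.48 and 0.29. These points share arrays and scaling and are given as a description, and the part of hepatocyte content in the differences was not tested. The sum adds linear levels and so leans on its brightest gene. That was Alb, also a negative acute phase protein, with mean levels of 10.36, 9.76 and 7.85 in p53f/f HCC, p53LKO HCC and ICC. The summed hepatocyte markers were lower in every ICC than in every HCC.
Fibroblast markers were higher in ICC, with 6 of 10 called and a sum of 8.96 to 9.78 against 6.25 to 8.00 in p53LKO HCC. Macrophage markers summed to 7.35 to 8.22 against 6.72 to 7.72, with 2 of 10 called as higher, and their part was not tested either.

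**Figure D4:**
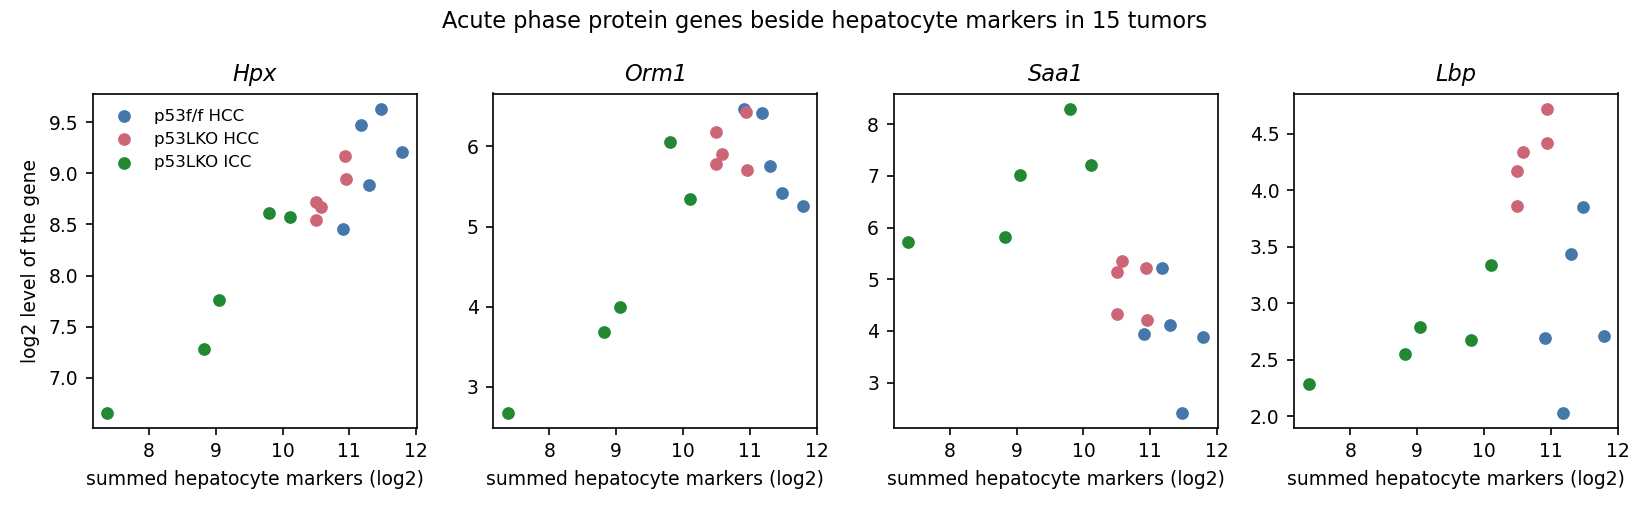
Log2 level of Hpx, Orm1, Saa1 and Lbp (y axis) against the log2 of the summed level of 10 hepatocyte markers (x axis) in the 15 tumors, coloured by group. Hpx and Orm1 are lowest in the ICC with the lowest marker sum, 7.38, which also has the lowest Saa1 and Lbp of the 5 ICC. Saa1 is higher in all 5 ICC than in any HCC.

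Markers of macrophages, fat cells, neutrophils and fibroblasts were also read between the HCC groups. Of 10 macrophage markers 1 rose and 1 fell in p53LKO HCC, with sums of 7.01 to 8.18 in p53f/f HCC and 6.72 to 7.72 in p53LKO HCC. The marker that fell was Itgam, at a mean level of 6.67 and 4.59, and 6 of the 10 had a difference above 0, with a median of 0.17. Of 4 adipocyte markers tested 1 fell. Of 8 neutrophil markers tested S100a8, S100a9 and Retnlg rose, by 1.84, 2.10 and 2.22, and Csf3r fell by 1.55, while the summed level of the list was 8.17 to 8.58 in p53f/f HCC and 7.07 to 7.49 in p53LKO HCC. Csf3r alone had a mean level of 8.26 and 6.71 in these groups and makes up most of that sum, and 6 of the 8 markers had a difference above 0, with a median of 1.17. At an unadjusted p below 0.05, 6 neutrophil markers were higher and 1 was lower. Of 10 fibroblast markers 2 rose and 0 fell, with 4 higher and 0 lower at an unadjusted p below 0.05. A difference above 0 was found for 9 of the 10, with a median of 0.91. The calprotectin genes S100a8 and S100a9 code for abundant neutrophil proteins. The part of neutrophils, or of any other of these cell types, in the Saa3 difference was not tested.

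Members moved together within groups in subsets. Over 15 arrays, deviations from the group means correlated at r = 0.97 between Saa1 and Saa2, 0.91 between Orm1 and Orm2, 0.89 between Orm2 and Orm3, 0.80 between Hp and Hpx and 0.69 between Apcs and Lbp. Saa1 went with Orm2 at 0.79 but with Lbp at -0.35 and with Saa3 at 0.54. Among 11610 genes well above background on all arrays, the 3 whose deviations were most like those of Orm2 were Chpt1, Nr1h4, the bile acid receptor FXR, and Hsdl2, at r = 0.93, 0.93 and 0.91. Most like Lbp were Cyp2b10, a drug-metabolizing enzyme of the liver, at 0.89, Srsf5 at 0.87 and Slc13a3 at 0.86. For Saa1 they were Acaa1b (0.87), Mettl7b and Hist1h1e (both 0.86), for Hp Thrb (0.86), Ppfibp2 (0.85) and Spsb4 (0.83), and for Saa3 Gimap4 (0.76), C8b (0.75) and Nodal (0.74). Without the 2 arrays farthest from the member's median, these values lay between 0.59 and 0.92. They were picked as the highest of many and carry no test.

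Further positive acute phase proteins changed in both directions. In p53LKO HCC against p53f/f HCC, 3 of 20 tested rose and 2 fell, with 5 higher and 7 lower at an unadjusted p below 0.05. Mt2 and Mt1, metallothioneins that bind zinc, rose by 2.63 and 2.33, Lcn2, which binds bacterial siderophores, rose by 1.34, the protease inhibitor Serpina3n fell by 1.38 and Fga, a fibrinogen chain, was called as lower as well (-1.33). In ICC against p53LKO HCC, 1 of 20 rose and 5 fell, with 1 higher and 9 lower at an unadjusted p below 0.05. Hamp, the iron hormone hepcidin, rose by 3.12 (SE 0.76, adjusted p = 0.00755), whereas Lcn2 fell by 2.76, Serpina3m by 2.37 and Lrg1 by 2.02. Crp, C-reactive protein, which is a minor acute phase protein in mice, differed by 0.10 (adjusted p = 0.851) and -0.47 (adjusted p = 0.468). The medians over the list were -0.32 and -0.46.

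Of 12 negative acute phase proteins, 0 were called between the HCC groups by limma, where 4 were lower and 0 higher at an unadjusted p below 0.05, and 11 fell in ICC against p53LKO HCC. Against p53f/f HCC, all 12 were lower in ICC and called. The largest falls in the comparison with p53LKO HCC were those of Apom, an apolipoprotein (-4.24), Apoa1, the main protein of high density lipoprotein (-2.76), F12, coagulation factor XII (-2.40), and Fetub (-2.28). Alb, Ttr and Apoa1 are counted among the hepatocyte markers too. The list thus fell in the same tumors in which Saa1 and Saa2 rose and Orm1, Orm2, Hpx and Lbp fell.

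Upstream of the acute phase genes, the signal and its receptors changed unevenly. Il6 differed by -0.23 (adjusted p = 0.688) between the HCC groups and by 0.85 (adjusted p = 0.085) between ICC and p53LKO HCC, and was well above background on only 3 of 5 p53LKO HCC arrays. In p53LKO HCC 3 of 15 cytokine and receptor genes rose, namely the interleukin-22 receptor Il22ra1 by 1.79, the oncostatin M receptor Osmr by 1.70 and the interleukin-1 receptor Il1r1 by 1.29, and Lif fell by 1.26 with 2 of 5 arrays above background. In ICC against p53LKO HCC 3 of 14 rose and 3 fell. At an unadjusted p below 0.05, 5 were higher and 2 lower in the first comparison, and 6 higher and 4 lower in the second. Tnf rose by 2.28 and Il11 by 1.90, with Tnf above background on 4 and Il11 on 3 of the 5 p53LKO HCC arrays. Il1rap, the partner chain of the interleukin-1 receptor, fell by 2.67, and Il22ra1 was at least 4.79-fold lower (adjusted p = 0.000387), being well above background on none of the 5 ICC arrays.

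Among signalling and transcription factors, 1 of 18 rose in p53LKO HCC and 0 fell, while 8 were higher and 2 lower at an unadjusted p below 0.05. It was Cebpb, a C/EBP factor of the acute phase reaction, by 1.02 (SE 0.19, adjusted p = 0.00213). In ICC against p53LKO HCC 5 of 18 rose and 1 fell, with 7 higher and 5 lower at an unadjusted p below 0.05. Relb, an NF-kappaB subunit, rose by 1.82, and the feedback inhibitors of cytokine signalling Socs1 and Socs3 by 1.81 and 1.65. Nfkbiz, a nuclear cofactor of NF-kappaB, rose by 1.76 and was above background on 4 of 5 p53LKO HCC arrays, while Hnf4a, a hepatocyte factor, fell by 2.03. Hnf4a is also in the hepatocyte list. Stat3 differed by 0.26 (adjusted p = 0.228) and 0.06 (adjusted p = 0.843), and Socs3 by -0.12 (adjusted p = 0.805) between the HCC groups.

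**Figure D5:**
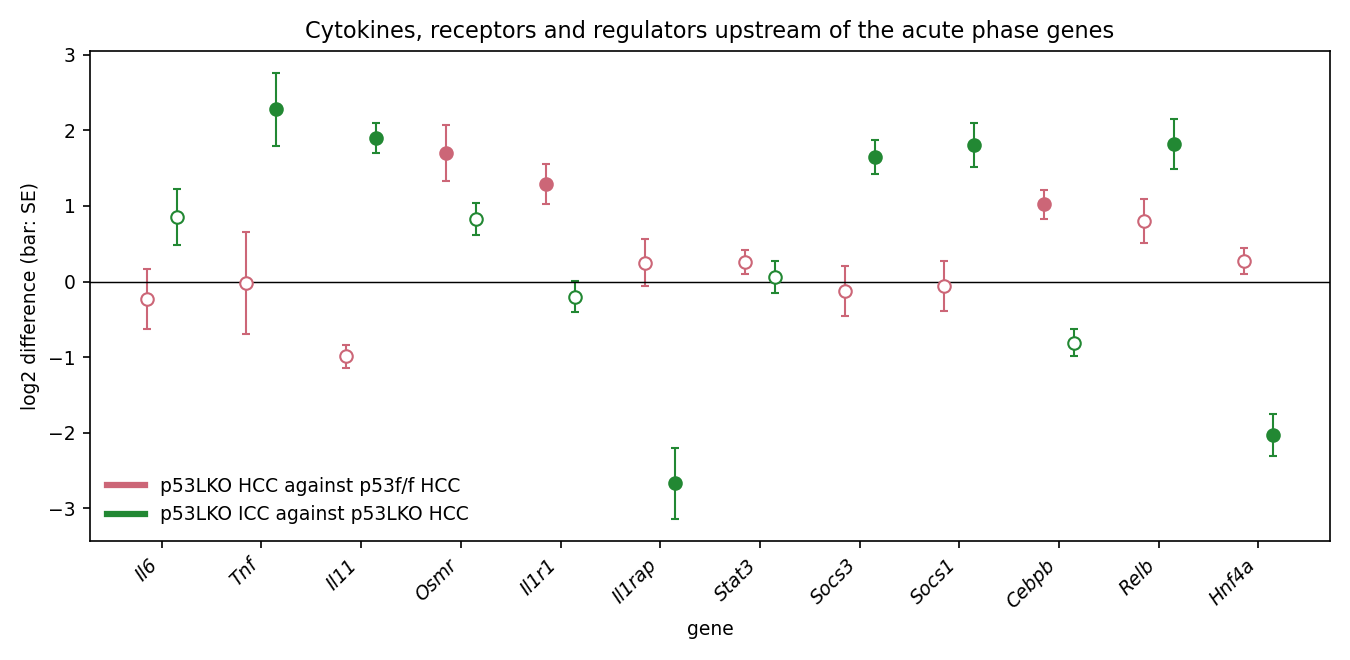
Log2 difference (y axis, bars show the SE) of cytokine, receptor and regulator genes for p53LKO HCC against p53f/f HCC and for ICC against p53LKO HCC, 5 arrays in each group, with filled points for genes that passed the test. Osmr, Il1r1 and Cebpb are filled in the first comparison, Tnf, Il11, Socs1, Socs3 and Relb lie above 0 and Il1rap and Hnf4a below 0 in the second.

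Of 10 receptors and partners of the member proteins that were tested, 1 rose between the HCC groups, with 2 higher and 1 lower at an unadjusted p below 0.05. It was Cd14, the lipopolysaccharide coreceptor that takes its ligand from Lbp, which rose by 1.53 (SE 0.36, adjusted p = 0.00866). In ICC against p53LKO HCC the Fc receptor Fcgr3, which binds pentraxins, rose by 1.68, and Scarb1, the receptor of high density lipoprotein and serum amyloid A, fell by 2.36.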

How the data were processed

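RNA of 15 tumors was measured on 1-colour Agilent arrays. The authors extracted the scans with Agilent Feature Extraction 10.7.3.1, and the deposited intensity used here is its processed signal, from which background was subtracted. A series table from the authors gives deposited log2 values, on the same percentile scale but with each probe centred on 10 arrays (lowest correlation with rebuilt values 1.0000, column medians -0.33 to 0.34). It was used as an alternative for the HCC groups alone, since ICC columns were centred on other arrays. Per the study's methods it came from GeneSpring, whose version is not given in the sources used here.

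Each probe's log2 processed signal, averaged over spots with no outlier flag, was set against the array's 75th percentile, taken over non-control probes. A probe entered a test when 3 or more arrays of either group read it well above background. Tests were run with limma 3.58.1 in R 4.3.3 on the 10 arrays of a comparison, with Benjamini-Hochberg adjustment over all probes, and called below an adjusted p of 0.05 and above 2-fold. A gene of another list was read by its brightest probe. An "at least" fold sets the brighter group's mean against the lowest signal well above background on each array of the dim group, or the probe's own where higher. The fits were tested on simulated data. P-values measure the spread between tumors, and the number of arrays limits the precision.

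All members are named, and of other lists up to 4 called genes with the largest change per comparison, with Il6, Stat3, Socs3 and Crp in every case. Fga and the cell type markers given by name were chosen after their values were seen. 1 gene of the transcription factor list is not reported here and is left out of its counts. Members and lists were chosen with earlier results of these data known, and the lists are from general knowledge. Motifs were searched in Python 3.11.15. The mouse numbers in the labels pair HCC and ICC of 4 animals. Deviations of such pairs from their group means correlated at -0.142 to 0.066, and those of other pairs at -0.263 to 0.283. Alternatives covered background correction, scaling, filters, blocks for slide, row and mouse, averaging of the tumors of mouse 3717, 1 probe per gene and leaving out each tumor.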

Additional observations from a re-analysis of the deposited data

How the results depend on the processing

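The number of members called in p53LKO HCC against p53f/f HCC was 2, and 4 with spike-in scaling. In ICC against p53LKO HCC it was 6, and 3 with quantile normalization, with the 75th percentile of probes above background on all arrays, without a filter or with the row as a block, 1 in the second row alone, and 2 in the paired fit with the mouse number as replicate block, which also lost the call of Saa2. With the median as scale it was 9. In ICC against p53f/f HCC it was 4, and 2 with the slide as a block. Leaving out 1 tumor gave 2 to 3, 3 to 7 and 2 to 5.

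In the order of these comparisons, probes called numbered 7086, 8615 and 6937, and 2892, 5614 and 3750 with normexp, 1848, 4331 and 3753 when above background on every array, 11865, 14764 and 12146 without a fold limit, and 2777, 4823 and 4083 with 1 probe per gene. They numbered 12140 in the first with spike-in scaling, and 19132 without a filter and 3701 with the slide as a block in the third. Leaving out 1 tumor gave 6089 to 7792, 7427 to 9414 and 6079 to 7516. In the second comparison the split was 4225 higher and 4390 lower, and 3103 and 8197 with median scaling and 6240 and 2252 with probes above background on all arrays. In the third it was 2652 and 4285, and 7349 and 926 with spike-in scaling and 3498 and 2404 with median scaling.

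Signs turned only for members that were not called. In the first comparison these were Orm1 (-0.05 with quantile normalization, -0.11 with probes above background on all arrays, -0.02 without the HCC of mouse 3681), Hp (0.36, 0.43 and 0.56 with quantile, median and spike-in scaling), Hpx (0.10, 0.28 and 0.42) and Apcs (0.09 with spike-ins). In the second it was Saa3 (0.49 with the row as a block and in the second row alone, 0.17 without the ICC of mouse 5283, 0.10 without the HCC of mouse 3731). In the third they were Lbp (0.04 and 0.54 with median and spike-in scaling, 0.01 without the first tumor of mouse 3717) and Orm2 (0.05 with spike-ins, 0.09 with the slide as a block). Leaving out 1 tumor gave -0.02 to 0.29 for Orm1, -0.68 to 0.17 for Saa3 and -0.44 to 0.01 for Lbp in these comparisons. The cause was not tested. Of member results under all settings, 246 of 260, 196 of 250 and 203 of 230 kept direction and side of the threshold. A second probe could not be tried, since each member has 1.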
